A study of Mus musculus with 2 samples.

Results

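The small leucine-rich proteoglycans (SLRPs) are secreted proteins built of a collagen-binding stack of leucine-rich repeats, most of which carry sulfated sugar chains. The 8 members described were *Kera*, *Lum*, *Dcn*, *Fmod*, *Ogn*, *Prelp*, *Bgn* and *Aspn*, chosen by name from the 20198 genes of the count table and followed through every cell cluster and library. Corneas of male mice of 6 to 8 weeks were dissociated and sequenced as single cells in 2 droplet libraries, 1 of unwounded corneas (UW) and 1 of corneas taken 24 h after the central epithelium had been marked with a trephine and scraped off (W). Each library pooled the corneal cells of 4 mice, so there was no replicate of either condition, and the mouse strain was not given in the sources used here. Epithelium and the rest of the cornea were digested with different enzymes, so shares of cells also depend on the digestion.

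In the cornea, SLRPs coat the collagen fibrils of the stroma and help set their even diameter and spacing, on which transparency rests. Keratocan (*Kera*), lumican (*Lum*), fibromodulin (*Fmod*) and osteoglycin (*Ogn*) can carry keratan sulfate chains. Decorin (*Dcn*) and biglycan (*Bgn*) carry chondroitin or dermatan sulfate, while asporin (*Aspn*) and prolargin (*Prelp*) usually carry no such chain. Keratocan is the member most restricted to the keratocyte, the resident cell of the corneal stroma, whereas decorin is made by fibroblasts of most connective tissues.

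Unique molecular identifiers (UMIs, 1 per RNA molecule counted) numbered 367166822 over the 16450 cells of the UW library, a median of 22014 per cell. In the W library there were 289586482 over 12417 cells, a median of 20290. Levels are given as counts per 1000000 UMIs of the same cells (CPM). Of the cell barcodes, 52 occurred in both libraries, and 12 cells of the stromal clusters carried one of them. The cluster numbers are the authors' own, and the deposited table names no cell types. Clusters 0 and 10 are called stromal here for short, from markers that are not SLRPs. In both libraries, 9 of 11 keratocyte markers reached 50 CPM in each of them. So did 5 of 8 epithelial markers in cluster 0 and 6 of 8 in cluster 10, but none of these was above its epithelial level. Of the keratocyte markers, 10 of 11 in cluster 0 and 9 of 11 in cluster 10 were above it. *Aldh3a1* was not, at 5574 CPM in UW and 3168 in W epithelial cells against 4321 and 2622 in cluster 0. *Ptgds*, a marker of the keratocyte list, was almost absent, with 1 UMI in the UW cells and 2 in the W cells of cluster 0. *Thy1* was at 0.352 and 1.48 CPM there. None of the 10 genes that led cluster 0 by fold was on the keratocyte list and 1, *Kdr*, was on the vascular list, so it is called by its number. Cluster 10 was led by *Penk* and *Myoc*, genes of the limbal, scleral and trabecular list, and *Aspn* itself ranked 4 among its leading genes. *Col8a1*, of the corneal endothelium list, ranked 9, none of the 10 was on the keratocyte list, and all 7 endothelial markers were above their epithelial level there, so cluster 10 too is called by its number. The clusters were made from the expression of these genes among others, so the levels that set one cluster apart from another are descriptions. In cluster 0 there were 2369 cells from UW (median depth 11853) and 1719 from W (17588). In cluster 10 there were 565 from UW (9288) and 632 from W (12198).

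The 8 genes lie in few places of the genome (GENCODE M21, GRCm38). *Dcn* (chr10:97479609-97518143), *Lum* (chr10:97565128-97572703) and *Kera* (chr10:97606879-97613692) follow each other on the plus strand of chromosome 10, with gaps of 47.0 and 34.2 kb. *Aspn* (chr13:49544443-49567565) and *Ogn* (chr13:49608046-49624501) lie on chromosome 13 with *Omd*, the gene of osteomodulin, between them. *Prelp* (chr1:133910304-133921414, minus strand) and *Fmod* (chr1:134037254-134048277, plus strand) are 116 kb apart on chromosome 1, and *Bgn* (chrX:73483602-73495933) lies alone on the X chromosome. Neighbours did not share one pattern. *Kera* and *Lum*, next to each other, differed by 2.95-fold and 1.59-fold between the libraries in cluster 0, and *Aspn* and *Ogn* were on opposite sides of 0.

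RefSeq promoters, the 250 bases before the annotated start (GRCm38.p6), were matched for 6 of the 8 members, and those of *Lum* and *Dcn* were not analysed here. The 250 bases of *Kera* lie inside the first exon of its GENCODE transcript and are not printed. Shown are *Fmod* (chr1:134037004-134037253, plus strand) and *Ogn* (chr13:49607765-49608014, plus strand), which were at least 2-fold lower in W cells of cluster 0, *Prelp* (chr1:133921402-133921651, minus strand), which was not lower there, and *Aspn* (chr13:49544193-49544442, plus strand), which was found almost entirely in cluster 10. Each runs 5′ to 3′ towards the start, and capitals mark matches, on either strand, to the TATA box TATAAA, the motif CCAAT, the GC box GGGCGG and the AP-1 motif TGAGTCA.
Fmod: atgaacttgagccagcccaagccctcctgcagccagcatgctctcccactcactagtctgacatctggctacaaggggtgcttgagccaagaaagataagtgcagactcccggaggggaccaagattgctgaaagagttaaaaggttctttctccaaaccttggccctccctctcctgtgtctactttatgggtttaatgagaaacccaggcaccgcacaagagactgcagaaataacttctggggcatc
Ogn: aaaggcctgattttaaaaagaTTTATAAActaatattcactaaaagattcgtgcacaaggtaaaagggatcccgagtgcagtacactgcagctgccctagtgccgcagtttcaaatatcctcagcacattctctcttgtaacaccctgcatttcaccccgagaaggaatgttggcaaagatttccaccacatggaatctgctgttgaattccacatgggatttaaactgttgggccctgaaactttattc
Prelp: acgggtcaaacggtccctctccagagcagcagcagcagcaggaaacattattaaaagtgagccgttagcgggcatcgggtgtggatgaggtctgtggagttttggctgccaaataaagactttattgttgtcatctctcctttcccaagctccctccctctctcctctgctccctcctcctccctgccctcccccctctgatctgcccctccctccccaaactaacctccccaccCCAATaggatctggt
Aspn: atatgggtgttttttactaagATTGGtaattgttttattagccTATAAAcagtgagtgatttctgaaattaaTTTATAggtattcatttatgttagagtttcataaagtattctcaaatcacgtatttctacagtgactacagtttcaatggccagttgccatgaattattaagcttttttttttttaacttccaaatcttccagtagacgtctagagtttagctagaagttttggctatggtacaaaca
TATAAA occurred in the windows of *Ogn* and *Aspn*, against 12.4% of all 32851 promoters of this length. In *Ogn* the match overlapped its own reverse complement 227 bases before the start, and in *Aspn* the matches began 207 and 178 bases before it. CCAAT occurred in 3 of the 6 windows, those of *Kera*, *Prelp* and *Aspn*, against 33.8% of all promoters. In *Prelp* it began 15 bases before the start. It reached into the last 13 bases of that window, which lie in an exon of GENCODE. GGGCGG occurred in the window of *Bgn* only, against 32.7%. TGAGTCA, the motif bound by AP-1, was in none of the 6 windows and in 4.46% of all promoters, and the window of *Fmod* held none of the 4 motifs. These matches are letters found in a window and no evidence of a binding site.

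SLRP transcripts were concentrated in the stromal clusters. Of all UMIs of the 8 genes, clusters 0 and 10 held 96.3% in UW and 93.6% in W, although they made up 14.4% and 3.43% of the UW cells and 13.8% and 5.09% of the W cells. Their share of all UMIs was 5.92% in UW and 3.15% in W cells of cluster 0, and 5.94% and 3.93% in cluster 10. *Kera* was the member most confined to cluster 0, which held 90.2% of its UMIs in UW and 87.4% in W. *Aspn* was the opposite, with 90.8% of its UMIs in cluster 10 in UW and 85.3% in W. *Fmod* also lay mainly in cluster 10, with 55.0% and 73.5% of its UMIs. For the other 5 members cluster 0 held between 54.5% and 80.7%.

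**Figure D1:**
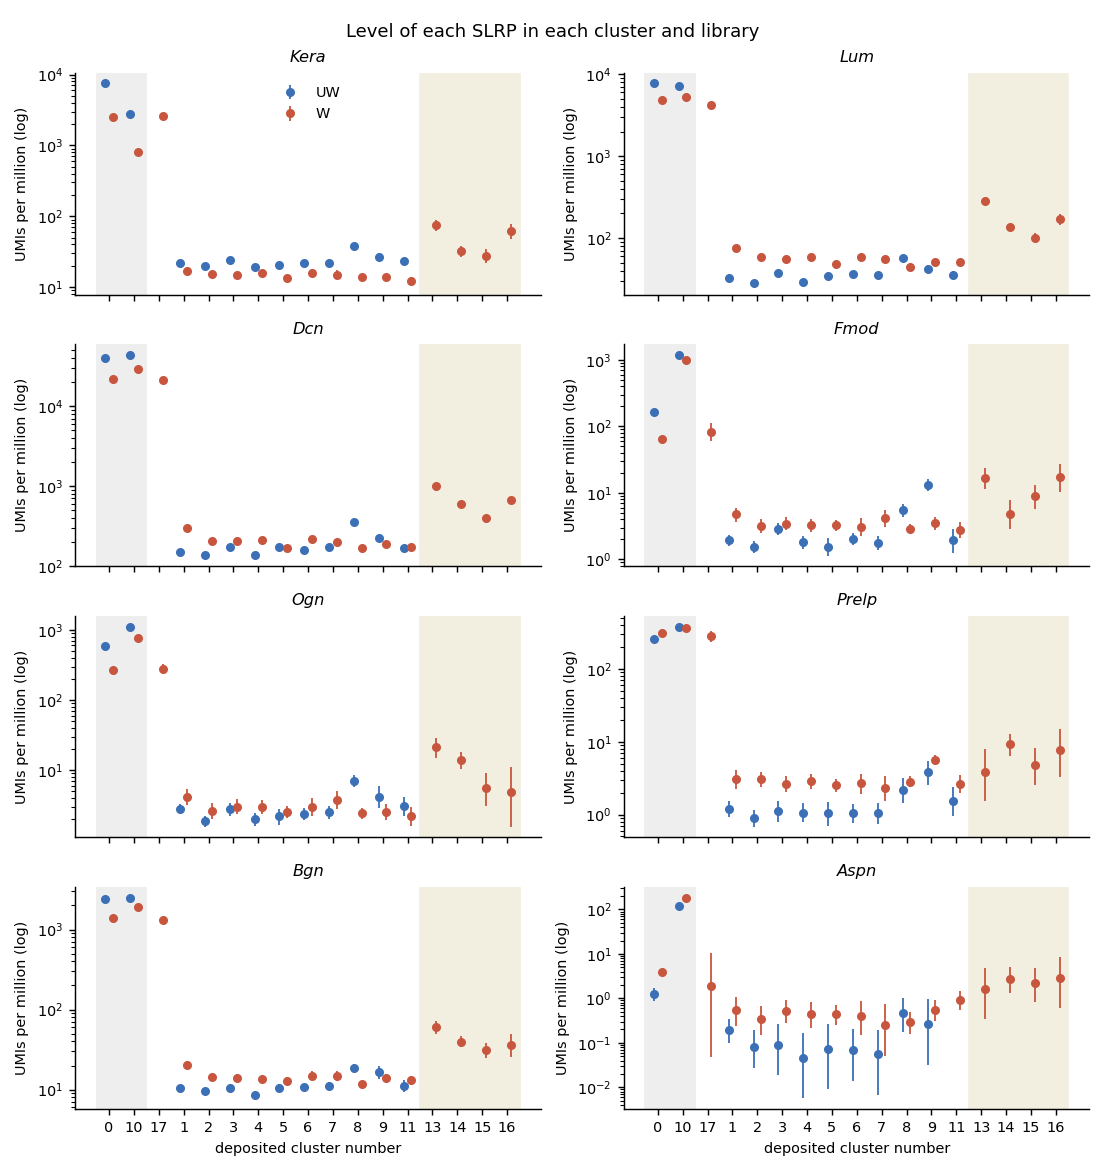
CPM (log axis) of each SLRP in each deposited cluster, UW in blue and W in red, with exact Poisson 95% intervals of counting error. Grey marks the stromal clusters 0 and 10 and yellow the immune clusters, groups of fewer than 20 cells and sums of 0 are not drawn, and *Kera* stood at 7482 in UW cells of cluster 0 against 22.1 over the epithelial clusters.

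The 4 most abundant members of cluster 0 kept their order between the libraries. Counts here are of 3′ tags, 1 per molecule, so levels are compared without dividing by transcript length. *Dcn* led with 40495 CPM in UW and 22050 in W. *Lum* (7733) and *Kera* (7482) followed closely in UW, the exact Poisson 95% intervals running from 7700 to 7765 and from 7450 to 7513. In W cells they had moved apart, to 4853 for *Lum* and 2537 for *Kera*. *Bgn* came next, at 2441 CPM in UW and 1413 in W. *Ogn* (582), *Prelp* (262) and *Fmod* (166) were lower in UW, and in W *Prelp* (309) had passed *Ogn* (271). *Aspn* was at 1.23 CPM in UW, from 35 UMIs, and at 3.94 in W, from 128. In cluster 10 the order was *Dcn* (44192 in UW, 28895 in W), *Lum* (7196, 5331), *Kera* (2747, 795), *Bgn* (2507, 1920), *Fmod* (1175, 997), *Ogn* (1115, 772), *Prelp* (378, 362) and *Aspn* (123, 181). *Kera* alone dropped more than 1 place there, from the third in UW to the fifth in W.

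SLRP transcripts took a smaller share of the UMIs in the stromal cells of the wounded corneas. In cluster 0 the summed level of the 8 members was 59161 CPM in UW and 31502 in W, a log2 ratio of -0.91. In cluster 10 it was 59432 and 39255, a log2 ratio of -0.60 (95% counting interval -0.61 to -0.59). Intervals cover counting error only, and no interval for mice or corneas could be had from 1 library per condition. *Dcn* made up most of the pool and its share of it hardly moved, at 68.4% in UW and 70.0% in W in cluster 0, and 74.4% and 73.6% in cluster 10. The share of *Kera* in the pool moved most among the abundant members, from 12.6% to 8.05% in cluster 0 and from 4.62% to 2.03% in cluster 10. For every 100 *Lum* UMIs there were 96.8 *Kera* UMIs in UW and 52.3 in W cells of cluster 0, and 38.2 and 14.9 in cluster 10.

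Called lower means a level at least 2-fold lower in W among genes with at least 50 CPM in one library and 20 UMIs over both. Every member that passed did so in both libraries. In cluster 0, 3 of the 7 members that passed this filter were lower by that measure, *Kera*, *Fmod* and *Ogn*, while 4.91% of all 3259 genes tested were. *Aspn* did not pass the filter. None of the 7 was at least 2-fold higher, against 5.25% of all genes. In cluster 10 all 8 members passed and 1, *Kera*, was at least 2-fold lower, against 2.58% of 3216 genes. None was at least 2-fold higher there, against 4.17%. The median log2 ratio was -0.88 for the 7 members and -0.08 for all genes tested in cluster 0, and -0.41 and -0.01 in cluster 10. At 1.5-fold, 6 of 7 members were lower and 0 higher in cluster 0, against 15.1% and 12.8% of all genes, and 2 of 8 were lower and 0 higher in cluster 10, against 9.05% and 10.1%. With a minimum of 10 CPM in place of 50 the members called were unchanged in number, against 5.27% of genes lower and 4.23% higher in cluster 0, and 3.44% and 3.59% in cluster 10. With 20 UMIs as the only filter, *Aspn* was called higher in cluster 0, beside 3 members lower, against 9.67% of genes lower and 7.34% higher. In cluster 10 the shares of genes were then 6.63% and 4.97%. No p-value can be given for these counts.

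**Figure D2:**
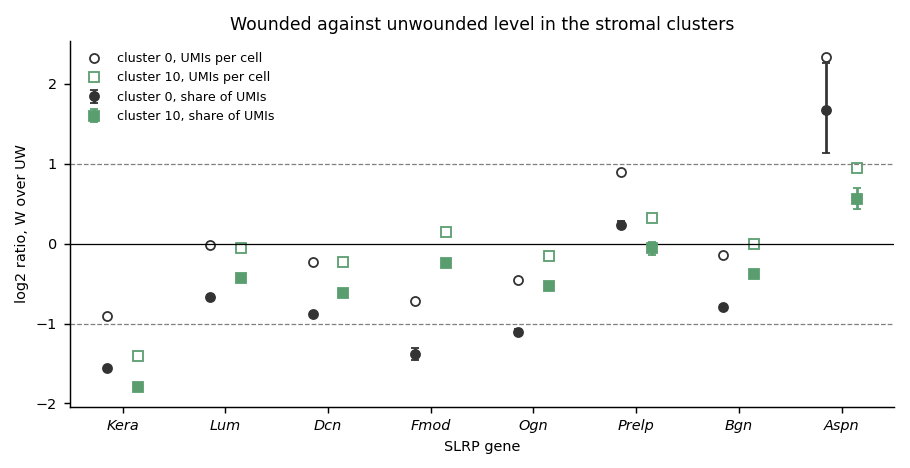
log2 ratio of W over UW for each SLRP, circles for cluster 0 and squares for cluster 10, filled for the share of UMIs with its 95% counting interval and open for UMIs per cell. Dashed lines mark 2-fold, and *Kera* is the only gene past the lower line in both clusters on the share of UMIs.

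Class II holds the main keratan sulfate carriers of the cornea, and its members differed among themselves. *Kera*, at 7482 CPM in UW and 2537 in W, was 2.95-fold lower in W cells of cluster 0 (log2 ratio -1.56, -1.57 to -1.55), and 1.35% of the genes tested had a lower ratio. In cluster 10 it was 3.46-fold lower (log2 ratio -1.79, -1.83 to -1.75), with 0.529% of genes lower. *Lum*, which shares its keratan sulfate chains and its chromosomal neighbourhood, was 1.59-fold lower in cluster 0 (log2 ratio -0.67, -0.68 to -0.66) and 1.35-fold lower in cluster 10 (-0.43, -0.45 to -0.41). *Fmod*, which binds collagen at the same site as lumican, was 2.60-fold lower in cluster 0 (166 against 63.9 CPM, log2 ratio -1.38, -1.45 to -1.30) but only 1.18-fold lower in cluster 10 (-0.24, -0.28 to -0.19), where most of it lay. *Prelp*, thought to anchor basement membranes to the matrix below, was the exception. It was 1.18-fold higher in W cells of cluster 0 (262 and 309 CPM, log2 ratio 0.24, 0.20 to 0.28), and in cluster 10 its interval spanned 0 (378 and 362, log2 ratio -0.06, -0.14 to 0.02).

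The class I members *Dcn* and *Bgn*, close relatives that bind TGF-beta, stayed near each other. *Dcn* was 1.84-fold lower in W cells of cluster 0 (log2 ratio -0.88, -0.88 to -0.87) and 1.53-fold lower in cluster 10 (-0.61, -0.62 to -0.60). *Bgn* was 1.73-fold lower in cluster 0 (log2 ratio -0.79, -0.81 to -0.77) and 1.31-fold lower in cluster 10 (-0.38, -0.42 to -0.35). *Aspn*, the third of that class, went the other way. It was 1.48-fold higher in cluster 10 (123 and 181 CPM, log2 ratio 0.57, 0.44 to 0.70), and in cluster 0, at under 4 CPM in both libraries, the ratio was 1.68 on the log2 scale (1.13 to 2.26). *Ogn*, of class III, was 2.15-fold lower in cluster 0 (582 and 271, log2 ratio -1.11, -1.14 to -1.07) and 1.44-fold lower in cluster 10 (1115 and 772, log2 ratio -0.53, -0.58 to -0.48). Each of the 6 members that were lower in cluster 0 except *Kera* had a log2 ratio nearer 0 in cluster 10.

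The amount per cell gave another picture, because W cells of both clusters carried more UMIs. A cell of cluster 0 held on average 89.8 *Kera* UMIs in UW and 47.9 in W. It held 92.8 and 91.6 *Lum* UMIs, 486 and 416 *Dcn* UMIs, and 29.3 and 26.7 *Bgn* UMIs. *Prelp* stood at 3.14 and 5.84 UMIs per cell. On this scale the median log2 ratio of all genes tested was 0.57 in cluster 0 and 0.37 in cluster 10, so *Lum* at -0.02 and *Bgn* at -0.14 kept about the same count per cell in cluster 0 while the median gene was higher. *Kera* remained lower per cell in both clusters, at -0.91 and -1.41, and no other member was as low. In cluster 10 *Fmod* (0.15) and *Prelp* (0.32) were above 0 per cell, and below the median gene. More RNA in a cell and deeper sequencing of it cannot be told apart in these counts.

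A window of depth narrowed this gap without closing it, since W cells were the deeper ones inside it too. Among cells with 8000 to 18000 UMIs, *Kera* kept log2 ratios of -1.28 in cluster 0 and -2.09 in cluster 10. *Ogn* (-0.97) and *Fmod* (-0.91) in cluster 0 then lay just inside 2-fold, so that 1 of 7 members was called there in place of 3, while the share of all genes called lower was 3.41% in place of 4.91%. In cluster 10, 1 of 8 was still called, against 2.67% of all genes. The ratio of *Fmod* in cluster 0 differed between depths, at -0.26 among cells of 8000 to 12000 UMIs, -1.02 among those of 12000 to 18000 and -1.69 among those of 18000 to 30000. *Kera* stood at -1.31, -1.27 and -1.56 in the same bins, which held 1067, 1056 and 78 UW cells and 133, 744 and 671 W cells. Among cells of 5000 to 8000 UMIs, with 113 from UW and 29 from W, *Fmod* was at -0.75 and *Kera* at -1.32. In cluster 10 the ratio of *Kera* was nearer 0 in that bin, at -0.54 (-0.74 to -0.34) over 161 UW and 36 W cells, so that no member reached 2-fold there. It was -1.97, -2.35 and -1.39 in the 3 deeper bins. *Aspn* in cluster 10 was at -0.55 (-1.18 to 0.03) in the shallowest bin and at 0.57, 0.97 and 2.76 in the deeper ones.

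Transcripts of other cell types in the stromal clusters were measured beside these ratios. The 8 epithelial markers summed to 2535 CPM in UW and 2621 in W cells of cluster 0, and to 2977 and 3122 in cluster 10, and each of the 8 was below its epithelial level. *Ptprc*, carried by all leukocytes, was at 0.141 and 0.678 CPM in cluster 0. The 5 neutrophil markers summed to 2.14 CPM in UW and 87.6 in W cells of cluster 0 and to 2.10 and 148 in cluster 10, nearly all of it *S100a8* and *S100a9*. The 7 monocyte and macrophage markers summed to 16.2 and 27.5 in cluster 0 and to 18.7 and 45.3 in cluster 10, and the 5 T cell markers to under 3 CPM in each. The part of these transcripts in the ratios was not tested. Leaving out, in each cluster and library, the 25% of cells richest in keratin UMIs gave a log2 ratio of -0.97 for the summed SLRPs in cluster 0 and -0.63 in cluster 10. The 7 corneal endothelium markers summed to 2261 in UW and 1158 in W cells of cluster 10, of which *Car3* made 678 and 7.93, and to 894 and 550 in cluster 0. In UW, 9 cells of cluster 10 held 20 or more *Car3* UMIs, and no W cell did. These 9 cells had almost none of some SLRPs and much of others. Their 239689 UMIs held 2140 of *Dcn* and 253 of *Ogn*, but only 2 of *Kera*, 5 of *Lum* and 1 of *Prelp*. That is 1056 CPM of *Ogn*, near the 1115 of the whole cluster, against 20.9 of *Lum*. Without them the log2 ratios in cluster 10 were -1.85 for *Kera*, -0.49 for *Lum* and -0.66 for *Dcn*, each lower than with them, and 1 member was called as before. The part of the endothelial markers in the ratios of cluster 0 was not tested. The 7 markers of the limbal, scleral and trabecular list summed to 9843 in UW and 6750 in W cells of cluster 10. *Myoc* (442 and 931), *Penk* (622 and 740) and *Chil1* (151 and 2166) were higher in W. *Angptl7* (7454 and 2014), *Dpt*, *Thbs4* and *Pi16* were lower. *Kdr*, of the vascular list, was at 216 and 72.6 in cluster 0. The part of these genes' cells in the ratios was not tested.

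Single cells were compared after each had been thinned to 5000 UMIs, which left out 51 of 2369 UW and 11 of 1719 W cells of cluster 0. *Kera* was found in nearly every cell, 99.96% in UW and 99.6% in W, as were *Lum* and *Dcn* at 100% in both. The lower level of *Kera* was therefore a lower amount in most cells. The median cell held 37 *Kera* UMIs per 5000 in UW, with 5% of cells below 22 and 5% above 55. In W the median was 13, with 5% of cells below 3 and 5% above 26. Relative to the mean, the spread between cells was wider in W, although the range in UMIs just given was narrower. The coefficient of variation beyond counting error was 0.217 in UW and 0.464 in W. For *Dcn* it was 0.206 and 0.308, around medians of 201 and 117. For *Lum* it was 0.269 and 0.330, around medians of 37 and 24. Cells with 10 or more *Kera* UMIs per 5000 made up 99.9% of UW and 68.6% of W cells of cluster 0 (exact 95% interval 66.3 to 70.8).

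For the less abundant members the share of cells with a UMI could be read. At 5000 UMIs, *Ogn* was found in 90.5% of UW and 66.8% of W cells of cluster 0. *Fmod* was found in 45.2% and 23.1%, and *Prelp* in 70.0% and 75.2%. Before thinning the shares were 98.0% and 91.4% for *Ogn*, 65.4% and 44.5% for *Fmod*, and 89.9% and 96.4% for *Prelp*. Free RNA in the droplets can add to such shares, and its amount was not measured. Shares in epithelial cells are given for comparison, and expression there was not tested. After thinning they were 1.34% and 1.44% for *Ogn*, 1.32% and 1.72% for *Fmod*, and 0.617% and 1.55% for *Prelp*. The median depths of the epithelial cells were 23669 UMIs in UW and 25553 in W. *Aspn*, with 0.561% and 1.35% in cluster 0, was above its epithelial shares of 0.0685% and 0.240% but near a single UMI per cell. At 2000 UMIs it was found in 0.815% of W cells of cluster 0 (0.446 to 1.36). In immune cells of W the share was 0.599% (0.259 to 1.18), and the intervals overlapped.

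**Figure D3:**
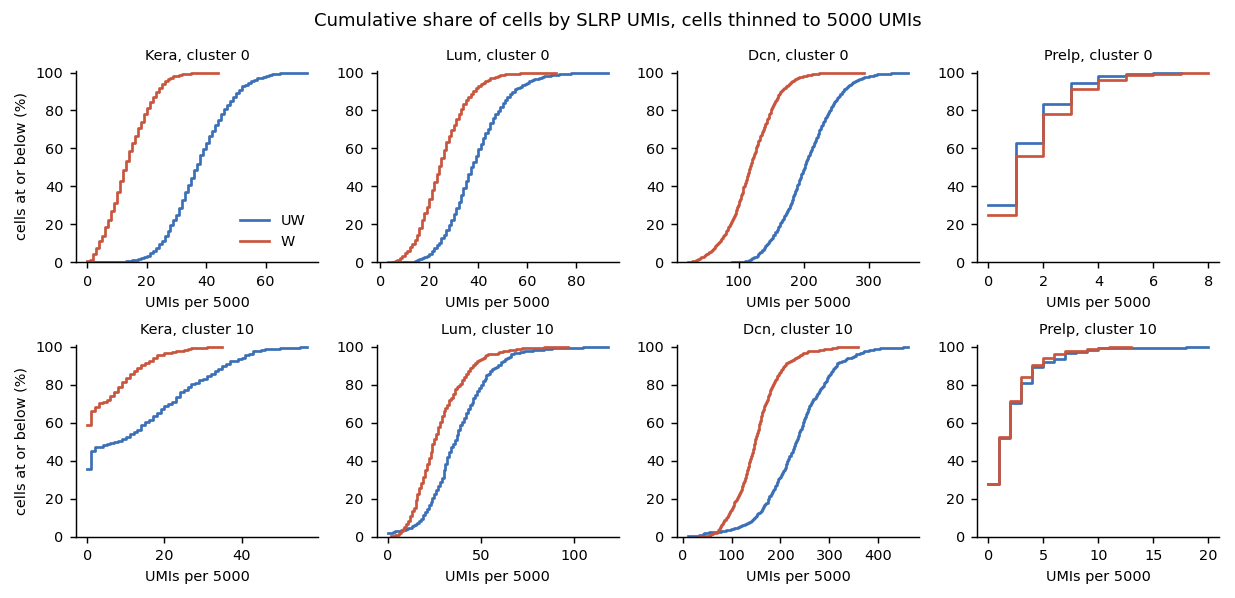
Cumulative share of cells (percent) by the number of UMIs of *Kera*, *Lum*, *Dcn* and *Prelp* after each cell was thinned to 5000 UMIs, UW in blue and W in red. Medians of *Kera* in cluster 0 were 37 and 13, the cluster 10 curves of *Kera* start at 35.8% and 58.5% of cells with none, and those of *Prelp* nearly overlap.

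Within UW cells of cluster 0 the members hardly varied together. Over the 28 pairs of members, Spearman's rho across 2318 thinned cells ran from -0.03 to 0.24, with a median of 0.02. In W the range was -0.03 to 0.46 over 1708 cells, with a median of 0.06. The pair of *Kera* and *Dcn* had the highest value in W, 0.46 against 0.03 in UW. *Lum* and *Dcn* had 0.24 in UW and 0.42 in W, and *Dcn* and *Bgn* 0.02 and 0.36. *Prelp* stayed near 0 with *Kera*, at 0.03 and 0.00. These values describe cells of 1 library each, which share their pool of mice and their free RNA, and thinning has made the total of each cell equal, so a high count of one gene leaves fewer for the rest.

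Cluster 10 was divided by *Kera*. At 5000 UMIs, 35.8% of UW cells (196 of 547) and 58.5% of W cells (363 of 620) had no *Kera* UMI, while 48.4% and 18.5% had 10 or more. Exact 95% intervals for the share with none, which cover the counting of cells within 1 library, were 31.8 to 40.0 for UW and 54.6 to 62.5 for W. In UW the 265 cells with 10 or more held on average 26.2 *Kera* UMIs, against 37.5 in the same class of cluster 0. In W the averages were 16.1 and 17.3. Cells with 1 to 9 held on average 2.71 in UW and 4.25 in W. *Lum* and *Dcn* were found in nearly all of these cells, *Lum* in 98.4% of UW and 100% of W cells.

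The other members followed *Kera* in different ways in these cells. *Fmod* averaged 9.20 UMIs per 5000 in UW cells without *Kera* and 3.56 in those with 10 or more, and in W 6.36 and 2.72. *Aspn* averaged 1.37 and 0.109 in UW and 1.32 and 0.191 in W, and was found in 37.8% of UW cells without *Kera* but in 4.91% of those with 10 or more. *Ogn* (6.70 and 4.86 in UW, 4.55 and 2.97 in W) and *Prelp* (2.94 and 1.34 in UW, 2.17 and 1.15 in W) were also higher in cells without *Kera*. *Dcn* was much alike in both classes, at 223 and 237 in UW and 149 and 161 in W. *Lum* in UW was at 34.1 and 39.4. In W it averaged 29.5 in cells without *Kera* and 24.9 in those with 1 to 9. Spearman's rho of *Kera* with *Fmod* was -0.40 over 547 UW cells and -0.29 over 620 W cells, and with *Aspn* -0.39 and -0.33. Within the cells without *Kera*, *Dcn* still stood at 223 in UW and 149 in W and *Fmod* at 9.20 and 6.36. *Aspn* was at 1.37 and 1.32 in that class. Since *Kera* itself was lower in W, a class need not hold the same kind of cell in both libraries.

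**Figure D4:**
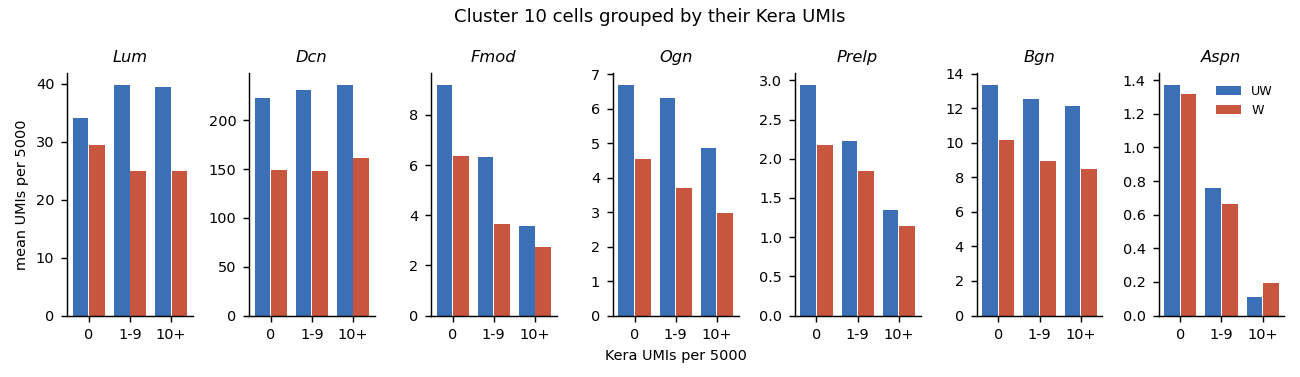
Mean UMIs per 5000 of the other 7 SLRPs in cells of cluster 10 with 0, 1 to 9 or 10 or more *Kera* UMIs per 5000, bars for UW (blue) and W (red), each axis starting at 0. Bars of *Fmod*, *Ogn*, *Prelp* and *Aspn* become shorter with more *Kera* in both libraries, *Aspn* from 1.37 to 0.109 in UW.

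Over the epithelial clusters every member was low but present. In the sum of these 10 epithelial clusters *Dcn* had a level of 163 CPM in UW and 194 in W, *Lum* at 34.3 and 53.7, and *Kera* at 22.1 and 14.4. The level of *Kera*, *Lum*, *Dcn*, *Ogn*, *Prelp* and *Bgn* over epithelial cells was between 0.295% and 0.451% of that in cluster 0 in UW and between 0.568% and 1.11% in W. For the members that lay mainly in cluster 10 that level was higher, 1.39% and 5.18% for *Fmod* and 8.79% and 11.6% for *Aspn*. Set against cluster 10 it was 0.196% and 0.331% for *Fmod* and 0.0882% and 0.251% for *Aspn*. Of the epithelial SLRP UMIs, *Dcn* made up 69.0% in UW and 68.0% in W. In cluster 0 it made up 68.4% and 70.0%, and in cluster 10 74.4% and 73.6%. *Lum* made up 14.5% and 18.8% of the epithelial SLRP UMIs, above its share in both stromal clusters. Those shares were 13.1% and 15.4% in cluster 0 and 12.1% and 13.6% in cluster 10. *Kera* per 100 *Lum* was 64.5 in UW and 26.8 in W. It was 96.8 and 52.3 in cluster 0, which held most SLRP UMIs, and 38.2 and 14.9 in cluster 10. Immune clusters, which were nearly all from W, had a ratio near that of epithelial cells, 26.6, at higher levels, such as 632 CPM of *Dcn* and 160 of *Lum*. In these immune cells *Fmod* was at 15.4% and *Aspn* at 60.2% of its W level in cluster 0, and at 0.984% and 1.31% of that in cluster 10. Free RNA can give UMIs in cells that do not express a gene. Its part in these low levels was not tested, and they were not read as expression. Among epithelial clusters *Fmod* was highest in UW cells of cluster 9, at 13.1 CPM against 2.30 over all epithelial cells, and *Dcn* in UW cells of cluster 8, at 354.

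Enzymes that build the sugar chains were followed by type of chain. Of 17 genes of keratan sulfate synthesis in the table, 5 passed the filter in cluster 0 and 2 were at least 2-fold lower in W, against 4.91% of all genes, with a median log2 ratio of -0.59 against -0.08 for all genes. *Chst5*, the sulfotransferase that in mice sulfates corneal keratan sulfate, was at 295 CPM in UW and 121 in W (log2 ratio -1.29, -1.34 to -1.23). *B3gnt7*, which extends the chain, was at 136 and 35.9 (-1.93, -2.02 to -1.83). It passed the filter through UW alone, as did *Chst2* (62.3 and 41.5), so that the count and the median are partly set by the filter. *B4galt1*, a galactosyltransferase of wider use, was at 73.0 and 88.0 (0.27, 0.19 to 0.35), and *Papss1*, which makes the sulfate donor, at 292 and 254 (-0.20). In cluster 10, *Chst5* was at 236 and 91.6 (-1.36, -1.49 to -1.23), 1 of 3 genes that passed, against 2.58% of all genes. The difference between the types of chain was not tested. None of the 6 genes of chondroitin and dermatan sulfate synthesis that passed in cluster 0 reached 2-fold in either direction, and their median was -0.09. With 4.91% of all genes lower and 5.25% higher, none among so few is near the share over all genes. *Chpf*, a polymerizing factor, was at 99.4 and 75.7 (-0.39), *Csgalnact2*, which starts the chain, at 63.9 and 62.7 (-0.03), *Chst12* at 73.4 and 56.3 (-0.38), *B3gat3*, which completes the linker, at 53.5 and 48.0 (-0.16), and *Chpf2* at 32.3 and 51.9 (0.68). Below the filter, and named after its values had been seen, *Chsy3* was at 39.3 and 14.5 (-1.43, -1.59 to -1.28). In cluster 10, where 2.58% of all genes were lower and 4.17% higher, none of 5 reached 2-fold, from *Chst12* (51.0 and 39.3, -0.37) to *Ugdh* (59.9 and 91.4, 0.61).

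Relatives of the 8 members were rare in cluster 0. None of 10 other SLRPs and related genes reached 50 CPM in cluster 0. The most abundant there were *Chadl* (17.2 in UW and 10.3 in W), *Ecm2* (12.6 and 5.67), *Omd* (10.8 and 6.26) and *Tsku* (9.35 and 9.31). In cluster 10, *Omd* (240 and 139, log2 ratio -0.78) and *Ecm2* (80.7 and 31.6, -1.35), both neighbours of *Aspn* on chromosome 13, passed the filter, *Ecm2* through UW alone, and *Ecm2* was at least 2-fold lower, as were 2.58% of all genes. *Aspn*, which lies between them, was on the other side of 0.

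Collagens, the fibrils of which SLRPs coat, were counted with the genes that process them. In cluster 0, 18 of 28 collagen and collagen-processing genes passed, 6 were at least 2-fold lower and 1 was higher, against 4.91% and 5.25% of all genes, with a median log2 ratio of -0.86 against -0.08. Split after the values had been seen, the 9 collagen chains had a median of -1.09 with 5 of them lower, and the 9 processing genes a median of -0.12 with 1 lower and 1 higher. *Col1a1* was at 10059 CPM in UW and 4711 in W (-1.09), *Col1a2* at 8786 and 4571 (-0.94), *Col6a1* at 3094 and 1205 (-1.36), *Col12a1* at 2558 and 1206 (-1.09), and *Col14a1*, which passed the filter through UW alone, was the lowest by ratio (67.2 and 20.6, -1.71). The 1 that was higher was *Lox*, the enzyme that cross-links collagen (123 and 337, 1.46, 1.40 to 1.51). The other lower ones, named after their values had been seen, were *Col6a2* and *Plod1*. In cluster 10, 2 of 19 were lower and 1 was higher, against 2.58% and 4.17% of all genes. The median was -0.46 against -0.01 for all genes, or -0.63 for the 9 chains and -0.08 for the 10 processing genes. The 1 that was higher is near the share over all genes. They were *Col6a2* (1261 and 458, -1.46), *Col6a1*, named after its values had been seen, and *Col3a1* (132 and 335, 1.34).

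Of proteases that can cut proteoglycans and their inhibitors, 10 of 19 passed in cluster 0 and 5 were at least 2-fold higher, with a median log2 ratio of 0.73, against 5.25% of all genes. Each of these 5 passed the filter through its level in W alone, so that the count and the median are partly set by the filter. *Timp1*, an inhibitor of metalloproteinases, had the largest ratio that could be computed, from 6 UMIs or 0.211 CPM in UW to 517 CPM in W (log2 ratio 11.26, 10.14 to 12.71). The other 4 were *Mmp3*, *Mmp12*, *Adamts1* and *Adamts5*, named after their values had been seen. *Mmp12* was at 0 in UW, with 1904 UMIs in W, so its ratio has no upper limit. The part of leukocyte transcripts in this was not tested. *Timp2* was at 1560 and 2081 (0.42), *Mmp2* at 601 and 664 (0.15), *Ctsk* at 235 and 173 (-0.44) and *Timp3* at 90.2 and 85.8 (-0.07). In cluster 10, 3 of 8 were higher, against 4.17% of all genes, *Timp1* from 19.3 to 307 (4.00), which passed the filter through W alone, and, named after their values had been seen, *Mmp3* and *Adamts1*, and *Ctsk* had the lowest ratio (408 and 332, -0.30).

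Receptors of SLRPs and TGF-beta ligands and receptors followed. In cluster 0, 2 of 10 genes that passed were at least 2-fold higher and none lower, against 5.25% and 4.91% of all genes, with a median log2 ratio of 0.05 against -0.08. Both were chemokines, *Ccl2* (19.1 and 861, 5.49) and *Cxcl1*, named after its values had been seen, and both passed through their level in W alone. Below the filter, and named after their values had been seen, the innate receptors *Tlr2* (9.70 and 20.7, 1.10) and *Cd14* (0.457 and 3.05, 2.74) were higher in W, while *Tlr4* (7.38 and 8.04, 0.12, -0.14 to 0.39) and *P2rx7* (7.28 and 6.26, -0.22) lay near 0. *Lrp1*, an endocytic receptor of decorin, was at 462 in both libraries (0.00, -0.03 to 0.04), *Itgb1* at 445 and 366 (-0.28), *Igf1r* at 205 and 162 (-0.34), *Tgfbr2* at 119 and 127 (0.09) and *Tgfbr1* at 53.4 and 41.1 (-0.38). In cluster 10, *Ccl2* was at 18.4 and 233 (3.67) and *Tgfbr3* at 98.6 and 78.5 (-0.33), and the same 2 chemokines of 11 genes were higher, against 4.17% of all genes, *Ccl2* having passed the filter through W alone. Below the filter there, *Tlr2* was at 5.25 and 16.8 (1.68), *Cd14* at 0.525 and 7.45 (3.83) and *Met*, a receptor that decorin binds, at 15.6 and 4.57 (-1.77). The neutrophil markers summed to 2.14 CPM in UW and 87.6 in W cells of cluster 0, and to 2.10 and 148 in cluster 10. The part of leukocyte transcripts in the ratios of *Tlr2* and *Cd14* was not tested in either cluster.

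Other keratocyte genes were mixed. In cluster 0, 2 of 8 were at least 2-fold lower, against 4.91% of all genes, with a median log2 ratio of -0.64 against -0.08. They were *Tkt*, a crystallin-like enzyme of the keratocyte (2483 and 828, -1.59), and *Mfap4*, named after its values had been seen. *Apod* (10145 and 6916, -0.55), *Angptl7* (8772 and 5025, -0.80) and *Aldh3a1* (4321 and 2622, -0.72) lay between *Prelp* and *Dcn* in ratio, and *Cd34* was higher (107 and 168, 0.64). In cluster 10, 2 of 9 were lower, against 2.58% of all genes, *Angptl7* (7454 and 2014, -1.89) and *Tkt*, with a median of -0.05, and *Fbln1* had the highest ratio (251 and 442, 0.82). Of genes of activated fibroblasts, 3 of 10 were higher and 2 lower in cluster 0, against 5.25% and 4.91% of all genes, with a median of 0.44. The higher ones were *Timp1*, *Lox* and *Spp1*, the last named after its values had been seen. The part of leukocyte transcripts in the ratio of *Spp1* was not tested. *Timp1* and *Spp1* passed the filter through W alone and *Myl9* (52.2 and 14.5, -1.85), which had the lowest ratio, through UW alone, so that the counts and the median are partly set by the filter. *Vim* was at 1566 and 3127 (1.00, 0.98 to 1.01), *Sparc* at 8113 and 4086 (-0.99) and *Fn1* at 393 and 327 (-0.26). In cluster 10, 4 of 12 were higher and 2 lower, against 4.17% and 2.58% of all genes, with a median of 0.44. *Myl9* (94.4 and 34.0, -1.47), which passed the filter there through UW alone, had the lowest ratio and *Timp1*, which passed through W alone, the highest, so that these counts too are partly set by the filter. *Sparc* was the other lower one and *Spp1*, *Tnc* and *Tnfaip6* the other higher ones, all 4 named after their values had been seen.

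Genes with the most similar pattern were sought over 28 sums of a cluster in a library with at least 50 cells, 4 of them stromal, by Pearson's r of log2(CPM + 1) across 6223 genes. For *Kera* they were *Ntrk2*, *Col6a1* and *Tmem132c* (r of 0.994, 0.994 and 0.992), and no SLRP ranked above place 44. *Lum* was most like *Apod*, *Aqp1* and *Cped1*, with *Bgn* in place 5. *Dcn* and *Bgn* were each other's nearest gene, at r of 0.999, followed for both by *Serpinf1* and *Aebp1*. *Ogn* was most like *Itgbl1* and *Serpinf1*, *Prelp* like *Fbln2*, *P3h3* and *Smoc2*, and *Fmod* like *Postn*, *Reck* and *Sfrp2* (0.979, 0.977 and 0.972). *Aspn* was nearest to *1500015O10Rik*, *Stc1* and *Myoc* (0.972, 0.970 and 0.970), and its r with *Kera* was 0.681. All of these sums come from the same 2 libraries and share their depth and free RNA, so r is a description.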

How the data were processed

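Single cells of 2 pooled libraries were counted by the authors with Cell Ranger 3.1.0, per the labels, and filtered in Seurat, with calls of doublets and a dissociation signature removed. The labels name mm9 and the v3 kit where the study's methods name mm10 and the V2 kit, so no read coordinate was used. The deposited values are raw UMI counts per gene and cell, with cluster numbers and no cell type names, and hold fewer cells than the study describes. In 28867 of 28867 cells the summed counts equalled the deposited total. An earlier doublet column still named 469 cells, which were left out in an alternative.

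Counts were summed per deposited cluster and library in Python 3.11.15 (numpy 2.4.6, pandas 2.3.3, scipy 1.17.1) and given per 1000000 UMIs (CPM), with exact Poisson or Clopper-Pearson 95% intervals. PCR duplicates were collapsed by UMI, and intervals cover counting error only. With 1 library per condition no test was made. Other scalings used TMM (edgeR 4.0.16) and median-of-ratios factors (DESeq2 1.42.0) in R 4.3.3. Cells were thinned to 5000 UMIs for shares and spreads. The code for the ratio was checked on simulated counts with known folds.

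The members and gene lists were chosen with earlier results of these data known. Named genes are the 8 members, per list the 4 with the highest level in cluster 0 and the largest and smallest ratio among those at 50 CPM, and the 3 genes most like each member. *Chst4*, *Chst6*, *Mstn* and *Ccn1* of the lists were not analysed here, and *Ccn2* was read under its older symbol, *Ctgf*. Some genes that these rules would name are not reported here.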

Additional observations from a re-analysis of the deposited data

Results flagged for a closer look

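Summed over the 10 epithelial clusters, 4 members were on the other side of 0 from cluster 0 with counting intervals clear of 0, and *Ogn*, at 0.10 (-0.05 to 0.24) against -1.11, had an interval that spanned it. The log2 ratio of W over UW was 0.65 for *Lum*, 0.25 for *Dcn*, 0.52 for *Fmod* and 0.37 for *Bgn*, against -0.67, -0.88, -1.38 and -0.79 in cluster 0. The levels behind these ratios were 34.3 and 53.7 CPM for *Lum* and 2.30 and 3.31 for *Fmod*. With 1 library per condition the difference was not tested. The clusters were not alike. In cluster 8 all 4 were lower in W, *Lum* at 57.4 and 45.1 CPM, *Dcn* at 354 and 168, *Fmod* at 5.47 and 2.87 and *Bgn* at 18.6 and 11.9, and in cluster 9 *Dcn* (225 and 186), *Fmod* (13.1 and 3.49) and *Bgn* (16.4 and 13.9) were.

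Cluster 17, of 29 cells that were all from W, lay outside the comparisons because UW had none. SLRPs made up 3.037% of its UMIs, with *Kera* at 2598, *Lum* at 4277, *Dcn* at 21529, *Fmod* at 82.5, *Ogn* at 274, *Prelp* at 281 and *Bgn* at 1323 CPM, close to the W cells of cluster 0. Leukocyte markers were found in the same cells, *Ptprc* at 39.4, *S100a8* at 1578 and *S100a9* at 2077 CPM, against 0.678, 46.0 and 41.5 in W cells of cluster 0. The part of doublets in this was not tested.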

How the results depend on the processing

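The summed log2 ratio of the 8 SLRPs stayed below 0 in both clusters under every setting run, and moved beyond its narrow counting interval in most. In cluster 0 it was -0.85 with TMM factors, -0.83 with median-of-ratios factors, -0.82 without mitochondrial and ribosomal protein genes in the total, -0.81 as a mean over cells, -0.82 after thinning, -0.92 with a stricter filter on cells, -0.89 without cells named doublets, and -0.97 without the cells richest in keratins. In cluster 10 the same settings gave -0.55, -0.54, -0.57, -0.58, -0.60, -0.67, -0.60 and -0.63. Settings chosen after the data had been seen gave -0.66 and -0.62 for cells of 8000 to 18000 UMIs, -0.26 and -0.22 for UMIs per cell, and -0.65 in cluster 10 without the 9 *Car3* cells. The number of members at least 2-fold lower in cluster 0, 3, was 1 among cells of 8000 to 18000 UMIs, 0 by UMIs per cell and 6 at 1.5-fold, and in cluster 10, where it was 1, it was 2 at 1.5-fold. The stromal share of SLRP UMIs was 96.2%, 98.2% and 96.4% in UW, and 93.9%, 95.4% and 93.6% in W, with the stricter filter, after thinning and without doublets. For single members no called ratio changed side. The ratios of *Fmod* and *Prelp* in cluster 10, neither called, changed side in 4 cases in all, among them both on UMIs per cell, a scale that moves all genes of a cluster alike. The cause of these shifts was not tested.

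No paired analysis was possible because there was 1 library per condition, and for the same reason none was left out. The depth limits *Aspn* in cluster 0 most, with 35 UMIs in UW and 128 in W.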
